A study of Homo sapiens with 6 samples.

Results

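Metallothioneins and 3 other genes of zinc handling were followed in RNA-seq libraries whose label is HCT8, a line established from a human colorectal cancer. The 9 genes are the metallothioneins MT1A, MT1E, MT1F, MT1G, MT1X and MT2A, the zinc-sensing transcription factor MTF1, the zinc exporter SLC30A1 and the zinc importer SLC39A10, out of 60664 genes in the deposited count table. They were chosen by name, with their levels in these libraries known, so their values are a description and carry no test. The control group is 3 libraries of cells of genotype WT that received a control plasmid, and the other group is 3 libraries of KDM4A-overexpressing cells that received a KDM4A overexpression plasmid. Both were kept in the same medium and carry the same batch number. The time from transfection to RNA is not given in the sources used here. Whether the replicates were grown as separate cultures is not stated in the labels. The spread and the p-values below cover the spread between these libraries, which may be technical.

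Metallothioneins are short, cysteine-rich proteins that hold zinc, copper and cadmium in clusters of thiolate bonds. MTF1 senses free zinc through its zinc fingers and then binds metal response elements in the promoters of metallothionein genes and of SLC30A1, which pumps zinc out of the cell. SLC39A10 brings zinc into the cytosol, and in mouse and zebrafish MTF1 is known to hold its gene down when zinc is high. In the intestine, metallothioneins are known as a buffer for dietary zinc.

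The coding sequences of MT2A, MT1E and MT1G, which stood far above their control level, are shown to make plain how alike these genes are and where their cysteines lie. They come from GENCODE release 29 transcripts (GRCh38, chromosome 16), 5′ to 3′ on the gene's own strand (minus for MT1G, plus for the others), without the stop codon. Capitals mark in-frame TGC and TGT codons, which encode cysteine.
MT2A: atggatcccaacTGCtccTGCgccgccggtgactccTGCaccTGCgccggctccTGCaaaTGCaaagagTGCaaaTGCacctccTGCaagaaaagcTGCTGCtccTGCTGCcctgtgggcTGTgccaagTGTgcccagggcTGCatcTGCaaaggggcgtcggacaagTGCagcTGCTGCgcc
MT1E: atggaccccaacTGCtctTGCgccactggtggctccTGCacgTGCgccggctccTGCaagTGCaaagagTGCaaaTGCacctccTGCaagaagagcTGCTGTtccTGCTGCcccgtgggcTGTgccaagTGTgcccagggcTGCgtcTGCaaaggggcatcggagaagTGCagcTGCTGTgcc
MT1G: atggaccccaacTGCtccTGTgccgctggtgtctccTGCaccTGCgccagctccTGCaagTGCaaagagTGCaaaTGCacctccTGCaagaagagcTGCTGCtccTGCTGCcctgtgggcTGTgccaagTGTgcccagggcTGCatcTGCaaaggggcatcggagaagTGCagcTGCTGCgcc
Each of the 6 metallothioneins had 183 coding bases in 3 coding exons and 20 cysteine codons among 61 codons. The coding sequences of any pair of the 6 were 88.5% (MT1F and MT1X) to 95.1% (MT1G and MT2A) identical. Identical stretches ran to 96 bases between MT1G and MT1X. Of all 50-base stretches in a gene's annotated transcripts, the share also found in another gene's transcripts was 1.22% for MT1F, 3.02% for MT2A, 5.76% for MT1A, 7.10% for MT1E, 16.5% for MT1G and 18.3% for MT1X. Reads from such stretches can be lost or assigned to a relative, so the level of each metallothionein, above all MT1G and MT1X, is uncertain. The shares do not give the size of that uncertainty, and can be too low for the main transcript. For most of these genes the annotated transcripts cover more bases than the exon length in the file. MT1X had 1867 stretches of 50 bases in its transcripts, beside an exon length of 404 bases.

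Promoters are shown because MTF1's sites lie there. Windows from RefSeq (GRCh38.p14), 250 bases before to 50 after a start, were at hand for 5 of the 9 genes. They were searched on both strands for TGCACNC and TGCGCNC, the letters of the metal response element core, with overlapping matches counted. Of 35116 human promoter windows, 29.6% held at least 1 match and 0.0199% held at least 8. The 250 bases before the start are printed for MT2A (chr16:56608334-56608583, plus strand), MT1X (chr16:56682220-56682469, plus strand), SLC30A1 (chr1:211579162-211579411, minus strand) and MT1H (chr16:56669564-56669813, plus strand), the last a metallothionein with no reads in any library. Capitals mark the matches on either strand.
MT2A: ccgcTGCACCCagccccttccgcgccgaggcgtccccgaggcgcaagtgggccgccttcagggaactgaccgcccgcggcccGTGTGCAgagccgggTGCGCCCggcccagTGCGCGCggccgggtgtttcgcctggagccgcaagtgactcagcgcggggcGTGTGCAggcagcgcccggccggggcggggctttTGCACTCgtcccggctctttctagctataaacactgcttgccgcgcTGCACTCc
MT1X: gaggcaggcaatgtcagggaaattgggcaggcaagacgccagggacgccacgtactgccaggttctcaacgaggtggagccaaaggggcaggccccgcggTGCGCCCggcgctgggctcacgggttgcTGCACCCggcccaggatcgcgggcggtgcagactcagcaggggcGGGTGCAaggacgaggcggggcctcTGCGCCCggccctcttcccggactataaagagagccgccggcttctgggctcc
SLC30A1: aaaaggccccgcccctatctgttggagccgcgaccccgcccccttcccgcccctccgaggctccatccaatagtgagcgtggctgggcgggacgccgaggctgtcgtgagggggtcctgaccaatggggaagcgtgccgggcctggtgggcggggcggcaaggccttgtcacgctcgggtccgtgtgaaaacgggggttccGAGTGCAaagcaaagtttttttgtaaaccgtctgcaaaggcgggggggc
MT1H: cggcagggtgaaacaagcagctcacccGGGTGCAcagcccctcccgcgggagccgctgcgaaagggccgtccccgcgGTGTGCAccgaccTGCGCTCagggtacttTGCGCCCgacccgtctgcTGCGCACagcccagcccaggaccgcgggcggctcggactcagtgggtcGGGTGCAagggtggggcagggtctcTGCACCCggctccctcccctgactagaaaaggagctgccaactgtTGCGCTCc
The MT2A window held 8 matches, 7 of them in the printed bases and 1 after the start. The MT1X window held 4, a number reached by 0.601% of windows, and the SLC30A1 window held 2, reached by 8.60% of windows, with 1 of these after the start. The MTF1 window held 0. Of the windows at the 2 SLC39A10 starts, the upstream held 0 and the other held 1 match, after its start. The windows of metallothionein genes without reads held matches as well, 8 in MT1H, 3 in MT1B and 3 in MT4. In the windows at hand, these letters thus did not separate MT2A and MT1X from metallothioneins without reads. The other metallothioneins with reads had no window, so nothing is said of them. A match is a description of the letters and not a measured binding site.

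The libraries held 14284240 to 23905980 counts, and libraries of a group correlated at r = 0.996 to 0.997 across genes (Pearson, log2 CPM). KDM4A itself went from 44.6 ± 1.56 CPM in controls to 156 ± 3.89 CPM with its plasmid (SD, n = 3). CPM is the count scaled to library size, adjusted by TMM factors, the composition correction of edgeR. Most genes differed between the groups, with 78.6% of the 17147 genes tested called at an adjusted p under 0.05 in the quasi-likelihood test of edgeR, 40% higher and 38.6% lower. The groups also differed in markers of cell type. Of 12 colon epithelium markers, the 10 that could be tested were all higher in the KDM4A plasmid libraries, their summed level being 264 to 279 CPM in controls and 3565 to 3819 CPM with the KDM4A plasmid. KRT20 (7 counts in all controls, 11 in all KDM4A plasmid libraries) and GPA33 (3 and 2 counts) were nearly absent from both. Of 10 markers of embryonic kidney or neural tissue, 9 were lower and 1 higher, and their sum went from 2633 to 3006 CPM in controls to 569 to 603 CPM. The control libraries, labelled HCT8, thus held far less RNA of these colon epithelium markers than the KDM4A plasmid libraries. A few genes carry the sums. In the controls KRT8 (mean 119 CPM) and KRT18 (61.6 CPM) were the largest parts of the colon sum, and IRS4 (2148 CPM) was the largest of the embryonic kidney or neural sum. Fibroblast markers summed to 19.8 to 21.4 and 13.4 to 16.1 CPM, and leukocyte markers to 1.80 to 3.50 and 4.36 to 4.93 CPM, controls first. The marker differences run along the same groups as the plasmids. Their part in the values below was not tested, and in this design it cannot be told apart from that of the plasmid. That both groups are HCT8 rests on the labels.

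The 6 metallothioneins together held 75, 98 and 92 counts in the control libraries and 1103, 1721 and 994 in the KDM4A plasmid libraries. Their summed level was 3.96, 4.84 and 4.03 CPM in the controls and 64.1, 72.8 and 70.1 CPM with the KDM4A plasmid. Every KDM4A plasmid library thus stood far above every control library, and the libraries within a group lay close together. The ratio of the group means, 69.0 ± 4.45 over 4.27 ± 0.487 CPM (SD, n = 3), was 16.1. In bulk RNA, more cells that make metallothionein and more metallothionein RNA per cell cannot be told apart. Of the 9 genes, 7 were higher and 2 lower with the KDM4A plasmid, with no overlap between the groups in any of them. Of all genes tested, 79.7% do not overlap, 40.4% higher and 39.3% lower with the KDM4A plasmid. The 8 that passed the filter on low counts were all called in the fit across all genes, against 78.6% of genes. Since the genes were chosen from this comparison, nothing follows from these counts. The plot of CPM by library shows all these values.

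**Figure D1:**
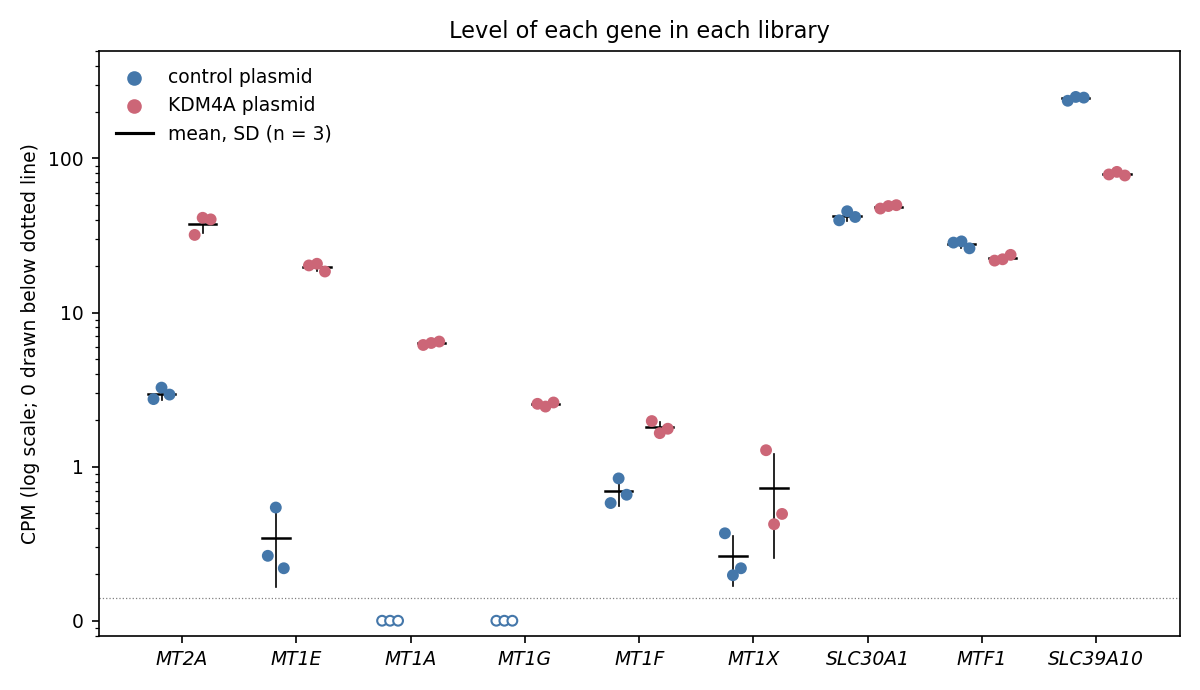
Level of each of the 9 genes in each library (CPM, log axis, with 0 drawn below the dotted line), with the mean and SD of 3 libraries per group. MT1A and MT1G sit at 0 in all controls, MT1X has 1 KDM4A plasmid library at 1.28 CPM above the others, and SLC39A10 is lower with the KDM4A plasmid, 79.4 against 245 CPM.

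MT2A, the most abundant metallothionein in both groups, is the form most human tissues make. MT2A (ENSG00000125148, chromosome 16, 56608584 to 56609497, plus strand, GRCh38.p13) had 52, 66 and 67 counts in the controls and 549, 974 and 571 with the KDM4A plasmid. In CPM these were 2.74, 3.26 and 2.94 against 31.9, 41.2 and 40.2. KDM4A plasmid replicate 1 was the lowest of its group and lay far above every control. Means were 2.98 ± 0.259 and 37.8 ± 5.12 CPM, a fitted log2 fold change of 3.66 (SE 0.12).

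MT1E makes a protein of the MT1 group. MT1E (ENSG00000169715, 56625475 to 56627112, plus strand) had 5, 11 and 5 counts in the controls and 348, 490 and 262 with the KDM4A plasmid. Its levels were 0.264, 0.543 and 0.219 CPM against 20.2, 20.7 and 18.5 CPM. The control value rests on 21 reads in all, and control replicate 2 held the most of them. The ratio of counts, scaled for library size, was 59.0 with a 95% counting interval of 38.4 to 95.8 (exact binomial, counting error only), and the fitted log2 fold change was 5.85 (SE 0.18).

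MT1A and MT1G had no reads in any control library. MT1A (ENSG00000205362, 56638666 to 56640087, plus strand) had 106, 150 and 92 counts with the KDM4A plasmid, or 6.16, 6.35 and 6.48 CPM. Against a floor of 3 counts over the control group it was 131-fold higher, with the KDM4A plasmid count taken as exact. MT1G (ENSG00000125144, 56666730 to 56668065), the only one of the 6 on the minus strand, had 44, 58 and 37 counts, or 2.56, 2.45 and 2.61 CPM. It was 52.2-fold higher by the same floor. In both genes the 3 KDM4A plasmid libraries lay close together.

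MT1F and MT1X differed least. MT1F (ENSG00000198417, 56657731 to 56660698, plus strand) had 11, 17 and 15 counts in the controls and 34, 39 and 25 with the KDM4A plasmid, or 0.580, 0.839 and 0.657 against 1.98, 1.65 and 1.76 CPM. The groups lay apart, with a fitted log2 fold change of 1.36 (SE 0.24). MT1X (ENSG00000187193, 56682470 to 56684196, plus strand) had 7, 4 and 5 counts in the controls and 22, 10 and 7 with the KDM4A plasmid, too few for the fit. Its levels were 0.369, 0.197 and 0.219 against 1.28, 0.423 and 0.493 CPM. The groups did not overlap, but KDM4A plasmid replicate 1 stood well above the rest of its group. The count ratio of MT1X was 2.75 (95% counting interval 1.501 to 5.27) and 1.74 without KDM4A plasmid replicate 1. In that library 22 counts have a Poisson interval of 13.8 to 33.3, and the 10 and 7 counts of replicates 2 and 3 have 4.80 to 18.4 and 2.81 to 14.4.

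Levels of different genes were compared per kb of exon length. The exon length in the file is 746 bases for MT1E and 396 to 425 for the other metallothioneins. The level and share of MT1E per kb depend on that length. By mean CPM, MT1E (0.342) lay above MT1X (0.262) in the controls. In the KDM4A plasmid libraries MT2A stood at 94.2 ± 12.8 CPM per kb, MT1E at 26.5 ± 1.59, MT1A at 15.98 ± 0.411, MT1G at 6.19 ± 0.191, MT1F at 4.23 ± 0.390 and MT1X at 1.81 ± 1.18 (SD, n = 3). No neighbours in this order overlapped. In the controls the order was MT2A at 7.43 ± 0.646 CPM per kb, MT1F at 1.63 ± 0.312, MT1X at 0.648 ± 0.232 and MT1E at 0.458 ± 0.235, and the last pair overlapped. By level per kb, MT2A was above 50.2% of the 13680 protein-coding genes tested in the controls and above 94.5% with the KDM4A plasmid. The other metallothioneins were lower in rank, MT1E moving from above 10.99% to above 79.4% of genes and MT1X from above 14.0% to above 22.6%.

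The make-up of the metallothionein RNA differed as well. MT2A gave 73.2% ± 1.999 of the summed CPM per kb in the controls and 63.0% ± 4.04 with the KDM4A plasmid. MT1F, the second in the controls, gave 15.9% ± 1.52 there and 2.86% ± 0.492 with the KDM4A plasmid. MT1E went from 4.397% ± 1.80 to 17.9% ± 1.88, and MT1A, at 0 in the controls, gave 10.8% ± 0.623. For each of these 4 genes the groups did not overlap. The libraries within the KDM4A plasmid group shared this make-up, except that replicate 1 had the lowest MT2A share (58.4%) and the highest MT1X share (2.32% against 0.665% and 0.797%).

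**Figure D2:**
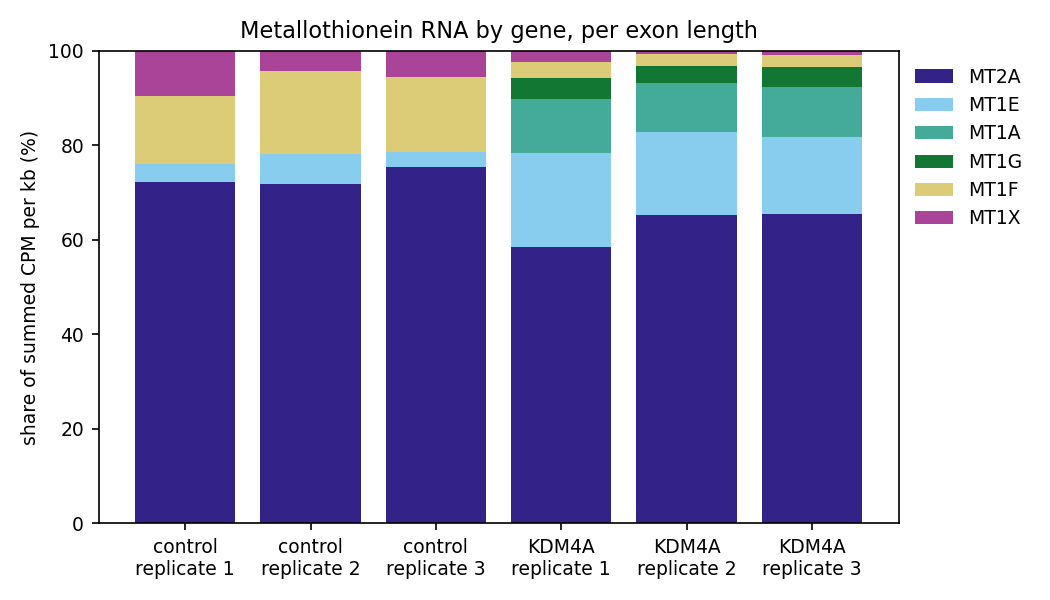
Share of the summed metallothionein CPM per kb of exon length given by each of the 6 genes (percent, stacked bars, 1 bar per library). MT2A is the main form in all libraries, MT1F is second in the controls and MT1E is second with the KDM4A plasmid, where MT1A and MT1G also appear.

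The cluster of metallothionein genes spans 119 kb of chromosome 16 (56565073 to 56684196) and holds 16 genes and pseudogenes in the table, of which 9 had any read. The 7 others (MT4, MT3, MT1JP, MT1CP, MT1B, MT1H and MT1IP) had 0 counts in all libraries. MT3, the brain form, and MT4, the form of stratified epithelium, were among these. They lay between or beside genes with reads. MT1M, a coding gene outside the 9 chosen, had 0 counts in every control library and 7, 14 and 7 with the KDM4A plasmid, 10.5-fold higher against the floor. The pseudogene MT1L had 1 count in control replicate 2 and 8, 6 and 7 with the KDM4A plasmid, a ratio of 23.7 (95% counting interval 3.81 to 979). MT1DP had 2, 2 and 0 counts with the KDM4A plasmid. None of the 15 other metallothionein genes and pseudogenes had enough counts for the fit. Among those on other chromosomes, MT1HL1 had 0 counts and MT2P1 had 0 in the controls and 9, 4 and 4 with the KDM4A plasmid. MT1P1 (0 counts in the controls, 3 with the KDM4A plasmid) and MT1P3 (0 and 2) were near 0, and MT1XP1 had 7 and 2.

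Genes beside the cluster differed in both directions. OGFOD1, a prolyl hydroxylase that acts on the ribosome, went from 163 ± 8.22 to 99.96 ± 2.90 CPM (a log2 difference of -0.70, SE 0.05, edgeR adjusted p = 2.0e-09). NUDT21, a subunit of the mRNA cleavage factor on the same side, had a fitted difference of 0.01 on the log2 scale (SE 0.06, edgeR adjusted p = 0.932). NUP93, a nuclear pore gene on the other side, had -0.09 (SE 0.05, edgeR adjusted p = 0.121, and 0.0111 with library size alone). HERPUD1, of the degradation of proteins from the endoplasmic reticulum, fell by 0.22 on the log2 scale (SE 0.05, edgeR adjusted p = 0.00104). GNAO1 (-1.03), the gene of a G protein subunit, was no longer called without KDM4A plasmid replicate 1 (edgeR adjusted p = 0.0539). NLRC5, an activator of HLA class I genes, rose from 2.85 ± 0.286 to 8.81 ± 0.864 CPM (a log2 difference of 1.64, SE 0.13, edgeR adjusted p = 3.2e-09). CES5A and CETP had 0 counts, and SLC12A3 had 2 and 3. Short transcripts in general were higher with the KDM4A plasmid. The 60 other protein-coding genes tested with under 500 bases of exon had a median log2 fold change of 0.85, against 0.04 over all 13680, and its part in the metallothionein values was not tested.

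**Figure D3:**
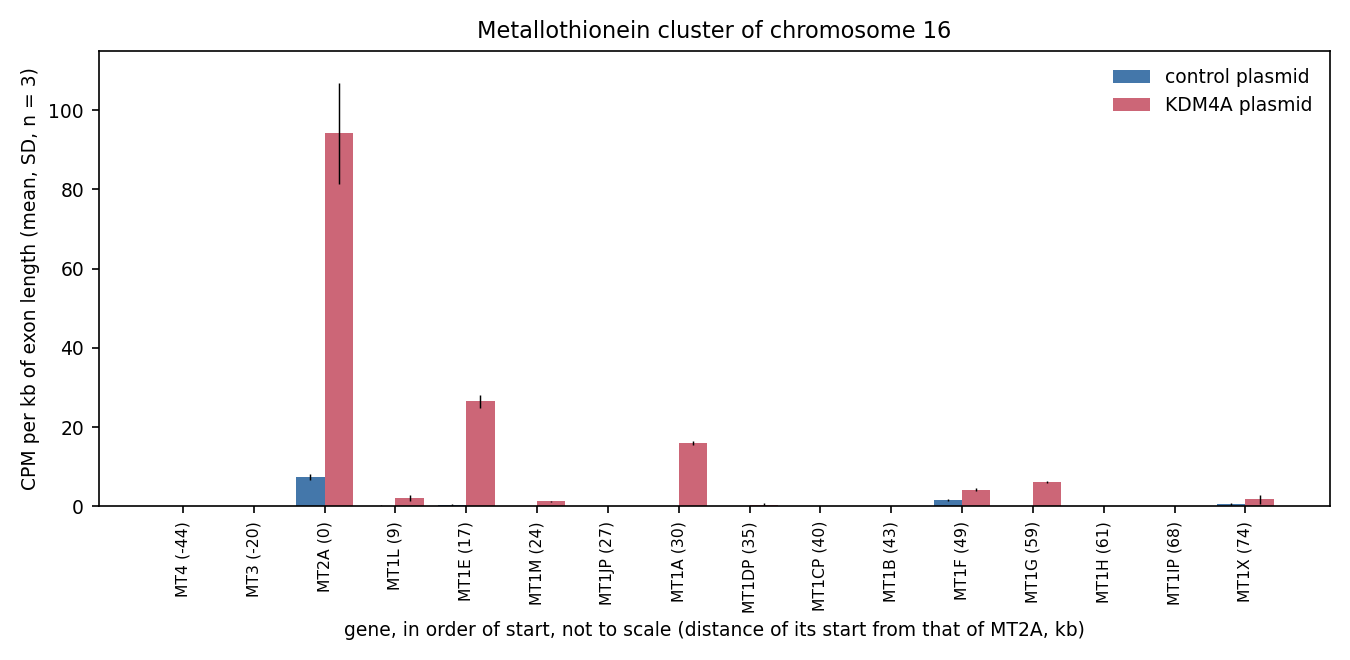
Mean level per kb of exon length (bars from 0, with SD of 3 libraries) of the 16 metallothionein genes and pseudogenes of the chromosome 16 cluster, in order of start and not to scale. MT2A, MT1E and MT1A stand out in the KDM4A plasmid libraries, and the 7 genes without reads lie between or beside them.

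MTF1, the regulator, was slightly lower with the KDM4A plasmid. MTF1 (ENSG00000188786, chromosome 1, 37809574 to 37859592, minus strand) stood at 28.4, 28.96 and 26.1 CPM in the controls and 21.7, 22.2 and 23.7 CPM with the KDM4A plasmid. The groups did not overlap but lay close. Its fitted log2 fold change was -0.31 (SE 0.07).

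SLC30A1, the exporter of the plasma membrane, was slightly higher. SLC30A1 (ENSG00000170385, chromosome 1, 211571568 to 211579161, minus strand) stood at 39.7, 45.4 and 41.7 CPM in the controls and 47.3, 49.1 and 49.8 CPM with the KDM4A plasmid. The highest control lay just under the lowest KDM4A plasmid library. The fitted log2 fold change was 0.20 (SE 0.06), a ratio of means of 1.15, beside a ratio of 16.1 for the metallothionein sum.

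SLC39A10, the importer, had the largest difference of the 3 genes that are not metallothioneins. SLC39A10 (ENSG00000196950, chromosome 2, 195575977 to 195737702, plus strand) stood at 237, 251 and 248 CPM in the controls and 78.7, 81.8 and 77.5 CPM with the KDM4A plasmid. The groups lay wide apart, with means of 245 ± 7.42 and 79.4 ± 2.21 CPM and control over KDM4A plasmid at 3.09. The fitted log2 fold change was -1.63 (SE 0.05). Per kb of exon length it was the third most abundant of 14 SLC39 genes in the controls, with 18.2% ± 0.458 of their summed level, and the sixth with the KDM4A plasmid, with 6.33% ± 0.0666. SLC39A7, which releases zinc from the endoplasmic reticulum and Golgi, was the most abundant in both groups, at 20.5% ± 0.585 and 32.2% ± 0.609.

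The other zinc transporters moved in both directions. Of 22 SLC30 and SLC39 genes outside the 9, 17 could be tested, and 4 rose, 9 fell and 4 did not pass, with a median log2 fold change of -0.17 (0.03 over all genes tested). Called in either direction were thus 13 of 17, beside 78.6% of all genes. Of the 7 SLC30 genes tested, 6 fell and 1 did not pass, beside 40% of all genes tested higher and 38.6% lower. Among 10 fitted SLC39 genes there were 4 that rose, 3 that fell and 3 that did not pass. SLC39A4, the importer of dietary zinc that is mutated in acrodermatitis enteropathica, went from 3.79 ± 0.279 to 13.4 ± 1.80 CPM (a log2 difference of 1.84, SE 0.13, edgeR adjusted p = 3.3e-10). SLC39A11, another zinc importer, rose by 0.86 (SE 0.08, edgeR adjusted p = 3.2e-08). SLC39A8, an importer of zinc and manganese, fell by 0.81 (SE 0.06, edgeR adjusted p = 9.2e-10), and SLC39A6 fell by 0.41 (SE 0.06, edgeR adjusted p = 5.1e-06). Among exporters, SLC30A10, known for manganese, fell by 1.10 (SE 0.23, edgeR adjusted p = 2.5e-04), and SLC30A4 fell by 0.92 (SE 0.08, edgeR adjusted p = 2.0e-08). The fall of SLC30A5 (-0.16) was no longer called without KDM4A plasmid replicate 2 (edgeR adjusted p = 0.0797) or 3 (edgeR adjusted p = 0.0836). SLC39A3 passed without KDM4A plasmid replicate 2, as a fall (edgeR adjusted p = 0.00774), and SLC39A13 without KDM4A plasmid replicate 1, as a rise (edgeR adjusted p = 0.0303).

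**Figure D4:**
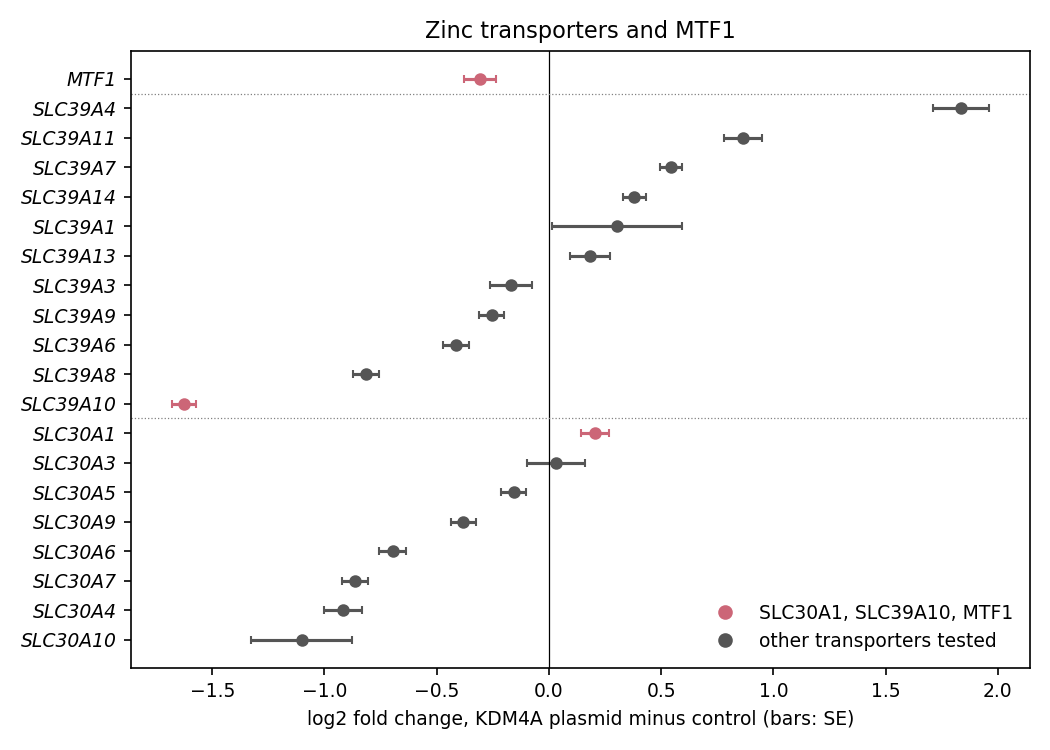
Fitted log2 fold change (KDM4A plasmid minus control, bars are SE) of MTF1, the 11 SLC39 genes and the 8 SLC30 genes that could be fitted. SLC39A10 has the lowest value (-1.63) and SLC39A4 the highest (1.84), and SLC30A1 (0.20) lies above the other SLC30 genes.

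Genes of zinc sensing and zinc passage were mixed, with 3 of 7 rising, 3 falling and 1 not passing, beside 40% of all genes tested higher and 38.6% lower. GPR39, a receptor for extracellular zinc, went from 0.17995 ± 0.0426 to 5.11 ± 0.823 CPM (a log2 difference of 4.79, SE 0.27, edgeR adjusted p = 2.3e-11). The endolysosomal channel gene MCOLN1 rose by 0.55 (SE 0.11, edgeR adjusted p = 2.5e-04). TMEM163, a zinc efflux transporter, fell by 1.00 (SE 0.28, edgeR adjusted p = 0.00337), and ZNF658, a zinc-responsive repressor, fell by 0.56 (SE 0.12, edgeR adjusted p = 4.8e-04).

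The genes whose pattern over the 6 libraries was nearest to the summed metallothionein level were sought by the root mean square difference of log2(CPM + 0.5), each profile first set to a mean of 0. The 5 nearest protein-coding genes outside the 6 metallothioneins were SLC52A3, a riboflavin transporter (0.0555), CDCP1, a membrane glycoprotein (0.0647), FOSL1, a subunit of AP-1 (0.0712), EVPL, the cell envelope protein envoplakin (0.0798), and CLDN7, a tight junction claudin (0.0803). FOSL1 averaged 0.759 ± 0.0712 and 19.4 ± 1.22 CPM and CLDN7 at 3.02 ± 0.331 and 51.7 ± 2.81 CPM, controls first. With 6 libraries in 2 groups, likeness here is mostly likeness of the step between the groups on this scale. The 0.5 CPM added before the log shrinks the step of genes with low control levels. The ratios of mean CPM were 31.1 for SLC52A3, 25.5 for FOSL1 and 22.7 for EVPL. They were 16.9 for CDCP1 and 17.1 for CLDN7, beside 16.1 for the metallothionein sum.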

How the data were processed

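RNA was measured in 6 libraries, 3 per group, from Trizol extracts turned into Illumina mRNA libraries, per the labels' protocols. The authors deposited raw read counts per gene, with exon lengths and GRCh38.p13 locations per the file headers. HISAT2, HTSeq and GRCh38 are named in the submitters' processing notes, with versions and strand setting not given in the sources used here. Without a strand setting, reads of overlapping genes cannot be separated. The genes that overlap the 9 had 0 counts, but reads that hit both genes of an overlap may have been left out of the counts. MT1X is overlapped by a long noncoding RNA gene on its own strand, and a loss of its reads there was not tested. Columns were matched to samples by name.

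From the deposited counts, edgeR 4.0.16 (R 4.3.3) kept 17147 genes by filterByExpr (minimum count 10). TMM scaling, glmQLFit with robust estimation and glmQLFTest followed, with Benjamini-Hochberg adjustment over all genes and a threshold of 0.05. SE is that of the log2 fold change. A group at 0 was given a floor of 3 counts over the group. Intervals (95%, exact binomial or Poisson) cover counting error only. Folds over a floor take the count of the other group as exact. The procedure was tested on simulated data in which few genes changed. That test does not cover a comparison such as this one, in which most genes were called.

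The 9 genes, the gene lists and the rule for named genes were chosen with earlier results of these data known. The rule took the 9 genes, other metallothioneins with any count, the 2 largest rises and falls that passed in each list, the 5 nearest genes on each side of the cluster, the 5 nearest patterns and KDM4A. Genes named beside these were chosen after their values were seen, and some results are not reported here. Alternatives were DESeq2 1.42.0, limma-voom (limma 3.58.1), RLE factors, library size alone, no filter, a filter of 1 CPM, a replicate block, CPM per kb, a motif window of 150 bases and leaving out each library.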

Additional observations from a re-analysis of the deposited data

How the results depend on the processing

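The 6 genes given a fold change under each alternative (MT2A, MT1E, MT1F, SLC39A10, MTF1 and SLC30A1) kept their direction. The log2 ratio of the summed metallothionein level was 4.01, from 3.96 to 4.11 when a library was left out, and 3.87 per kb of exon length. MT2A ranged from 3.59 to 3.78, MT1E from 5.57 to 6.33, MT1F from 1.24 to 1.502, SLC39A10 from -1.67 to -1.60, MTF1 from -0.37 to -0.28 and SLC30A1 from 0.15 to 0.25 over all settings (log2 fold change). The folds over the floor of MT1A (127 to 131-fold) and MT1G (50.7 to 52.2-fold) under other scalings, and the ratio of MT1X with each library left out (1.74 to 3.58), were computed after seeing the data. Over all genes, 6384 to 7846 were higher and 6188 to 7209 lower in the other settings. Among the 22 other zinc transporters 4 or 5 were higher and 8 or 9 lower in all settings. With the replicate number as a block, 6741 genes were higher and 6501 lower, with 4 and 9 of the transporters. Same-numbered libraries did not deviate together (correlations -0.20, 0.05 and -0.13, with 1 of 6 libraries nearest to its own number). No pairing by number was thus seen, but with 3 libraries per group this cannot show whether same-numbered libraries were handled together. In the 150 bases before the start, MT2A held 4 motif matches and SLC30A1 held 1. Depth limits the control values of MT1A and MT1G, which give only a bound, and the low counts of MT1X, MT1F and control MT1E.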

Other observations

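Lists of genes near zinc handling were mixed. Among 15 copper handling genes in the fit there were 8 rises, 6 falls and 1 that did not pass, with a median log2 fold change of 0.29. Over all genes tested 78.6% were called, 40% higher and 38.6% lower, and the median was 0.03. The rise of SLC31A2, a copper transporter gene (0.29, edgeR adjusted p = 0.0303) was lost in 8 settings (adjusted p from 0.0548 to 0.151). SCO2 (1.48) and COMMD1 (1.18), of copper delivery to cytochrome oxidase and of copper export, rose, and the copper importer SLC31A1 (-0.92) and the copper pump ATP7A (-0.89) fell (edgeR adjusted p = 3.8e-09, 4.8e-08, 1.7e-11 and 4.2e-08).

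Other genes known to answer metal or oxidant stress went both ways, with 6 of 9 tested rising and 3 falling (median 0.62), beside 78.6% called and a median of 0.03 over all genes. TXNRD1, a thioredoxin reductase, rose by 1.25 (edgeR adjusted p = 6.7e-13). The rise of SRXN1 (1.04, edgeR adjusted p = 0.0144) was lost with DESeq2 (adjusted p = 0.113), without control replicate 3 (edgeR adjusted p = 0.0847) and without KDM4A plasmid replicate 2 (edgeR adjusted p = 0.0839). The cystine transporter gene SLC7A11 (-1.47) and the heat shock gene HSPA1A (-0.74) fell (edgeR adjusted p = 1.9e-12 and 1.0e-05). HMOX1, a classic cadmium-response gene named after its values were seen, rose from 33.7 ± 3.73 to 43.2 ± 2.41 CPM.

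Of 9 glucocorticoid-responsive genes, hormones of that class being known inducers of MT2A, 3 rose, 5 fell and 1 did not pass (median -0.37), beside the same 78.6% and 0.03. SGK1 (1.95) and ERRFI1 (1.63) rose, and ZBTB16 (-2.77) and TSC22D3 (-2.56) fell. Of the KDM4 family, KDM4A rose, KDM4D fell by 0.61, KDM4B did not pass, KDM4E had 0 counts, and KDM4C rose by 0.18 (edgeR adjusted p = 0.0322), a call lost in 9 settings (adjusted p from 0.0536 to 0.137).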
